A study of Mus musculus with 20 samples.

Results

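The 84 genes described here encode the nuclear part of the mitochondrial respiratory chain. They were chosen by gene symbol from the 51789 rows of the deposited expression table: symbols that begin with Ndufa, Ndufb, Ndufc, Ndufs or Ndufv and a number, the symbols Sdha to Sdhd, and symbols that begin with Uqcr, with Cox4 to Cox8 or with Atp5. Another 6 rows with such symbols were left out because their names mark them as pseudogenes. By symbol, 37 genes belong to complex I, 4 to complex II, 8 to complex III, 18 to complex IV and 17 to complex V. Some names go further than the structure does. Cox7a2l is a factor of respiratory supercomplexes, Atp5s and Atp5sl are related to ATP synthase factors by name rather than being subunits of the enzyme, and Ndufa4 was named for complex I but is now regarded as a subunit of complex IV. The table holds 0 genes with the prefix mt-, so the subunits that mitochondrial DNA encodes are not analysed here.

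RNA came from the intervertebral discs of BL6 mice at 24 months of age. Beginning at 18 months, all animals had weekly intraperitoneal injections over 6 months, either of the solvent DMSO alone (vehicle) or of MDL-800, a small-molecule activator of the deacylase SIRT6, in the same amount of DMSO. The gel-like centre of the disc, the nucleus pulposus (NP), and the fibrous annulus fibrosus (AF) that encloses it were dissected. This gave 4 groups of 5 libraries: AF vehicle, AF MDL-800, NP vehicle and NP MDL-800. There was no group without DMSO and no younger group. The labels call the samples both primary cells and tissue, and the protocol describes dissected tissue preserved at once. They do not say whether each library is 1 mouse, or how many discs were pooled, so p-values measure the spread between these libraries.

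Complex I takes electrons from NADH and complex II takes them from succinate, an intermediate of the citrate cycle. Ubiquinone carries the electrons to complex III and cytochrome c carries them on to complex IV, which passes them to oxygen. Complexes I, III and IV pump protons across the inner mitochondrial membrane, and complex V, the ATP synthase, uses the returning protons to make ATP. A few complex IV and complex V subunits exist as isoforms from separate genes, some of them typical of striated muscle and others of low oxygen. The NP has no blood vessels, and its cells are known for living at low oxygen and for relying on glycolysis.

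Values below are FPKM (fragments per kilobase of transcript, relative to the mapped fragments of the library) after division by a scaling factor for each library. Library totals were not part of the table, and the depth estimated from the steps between low values ranged from 12.4 to 22.2 M reads. The sum of 9 NP markers was 25620 to 30790 in NP vehicle and 2493 to 15090 in AF vehicle, and the sum of 7 AF markers was 784.0 to 1561 and 2527 to 7132, and 8 of 8 tested NP markers were called higher and 6 of 7 AF markers lower in NP vehicle. The notochord gene Noto was at most 0.155 in every library, and Fmod was the AF marker not lower in NP. AF libraries also held more RNA of other cells. All 10 skeletal muscle markers were lower in NP vehicle than in AF vehicle, with sums of 11.0 to 1178 and 955 to 8398. Markers of blood cells, endothelium, fat, nerve and bone were lower in NP too. In bulk tissue, fewer cells of a type and less RNA per cell cannot be told apart. NP vehicle libraries 1 and 2 stood apart in composition: their slopes of log2 values on the GC content of the transcript were -0.31 and -0.30 per 10 percentage points, against -0.05 to -0.01 in the other NP vehicle libraries, so transcripts rich in GC were low in them. On the AF side, vehicle library 12 had a slope of -0.26, against 0.03 to 0.11 in the other AF vehicle libraries. MDL-800 library 27 had -0.12, against 0.06 to 0.15 in the other AF MDL-800 libraries. These AF libraries are also among the muscle-rich ones left out below. Where a gene described singly below lost its tissue call without NP vehicle libraries 1 and 2, both values are given. Sdhb, Sdhd, Uqcrc1, Cox4i2, Cox6a2 and Atp5g2 also had their NP vehicle values furthest from AF in libraries 1 and 2. For Ndufa3 and Ndufa8, the NP vehicle values nearest to AF were in these libraries. All of these genes stayed called without libraries 1 and 2, and their values without those libraries are not listed.

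Of the 84 subunit genes, 82 reached 1 FPKM in at least 5 of the 20 libraries and were tested. The other two are complex IV isoforms: Cox8c was listed at 0 in all libraries and Cox7b2 at no more than 0.157. In NP vehicle the mean level of the tested genes ranged from 0.977 to 1100, with a median of 65.5, and in AF vehicle from 7.69 to 522, with a median of 84.8. In NP vehicle the highest level of each complex, per transcript length, was that of Ndufa4l2 (mean 1101 ± 247, SD, n = 5), Sdha (72.5 ± 8.44), Uqcrb (151 ± 7.74), Cox4i2 (351 ± 116) and Atp5b (325 ± 28.6). In AF vehicle the highest of all was Atp5b, the catalytic beta subunit of the ATP synthase, at 522 ± 112 (SD, n = 5). The mean of Cox4i2 in NP vehicle was raised by library 1 (545), and by its median of 291 it lay below Atp5b, whose median was 328.

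**Figure D1:**
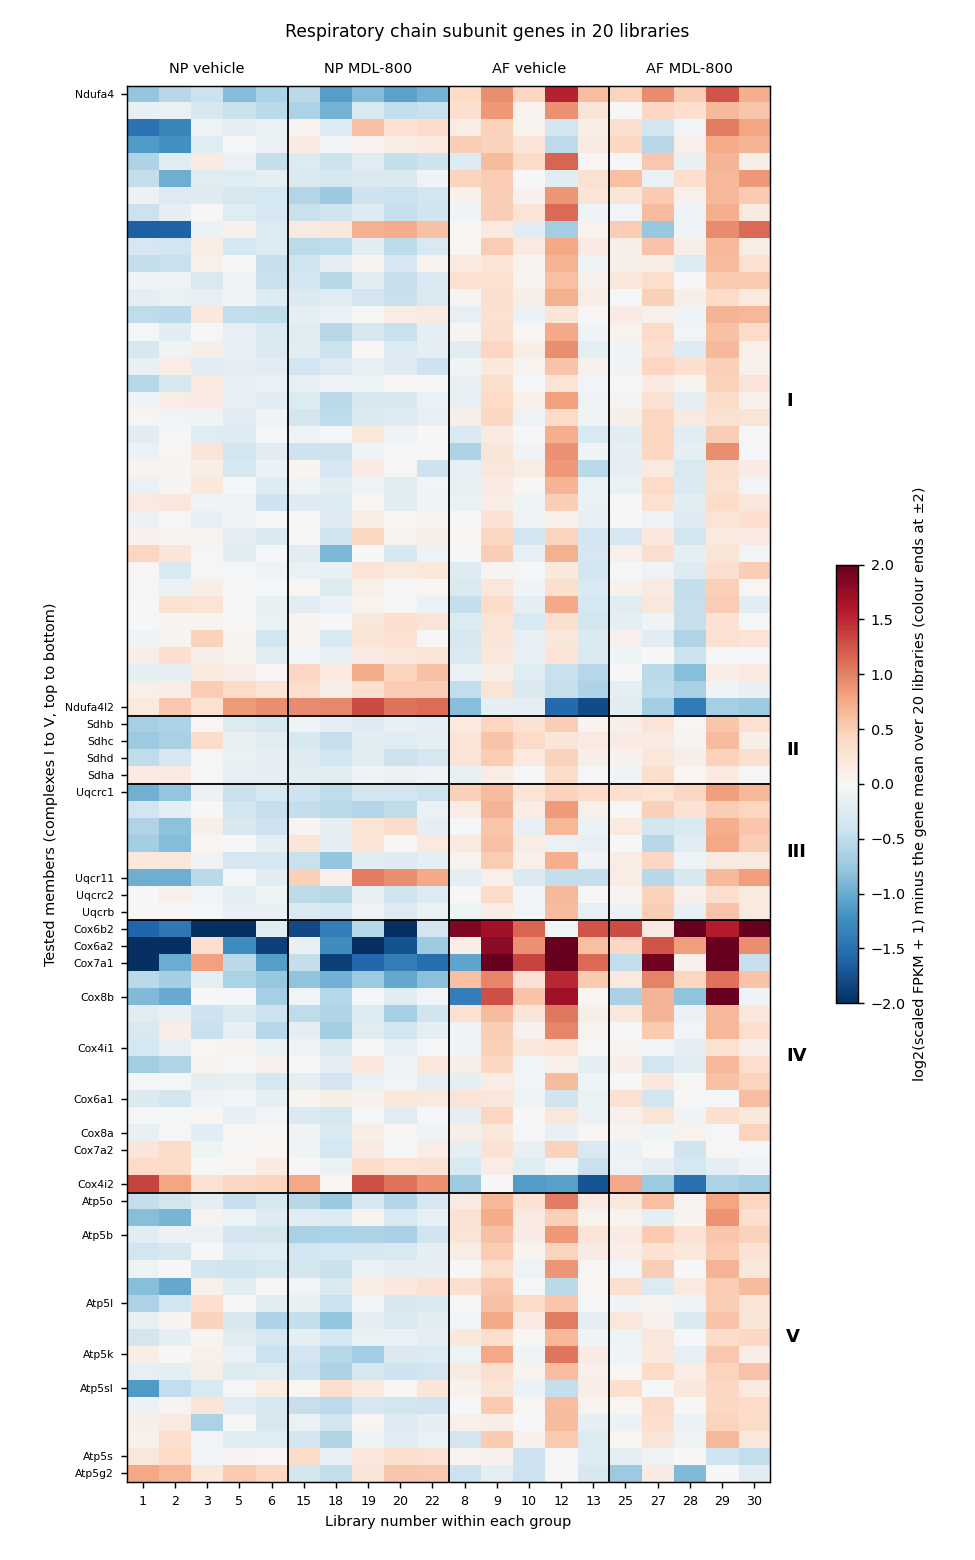
Each row is a tested member, with the members named by a fixed rule labelled, ordered by complex from I at the top to V at the bottom, and each column is a library, in 4 blocks of 5. Colour is log2(scaled FPKM + 1) minus the gene's mean over the 20 libraries, with the ends of the scale at 2 below and 2 above. NP columns are mostly below and AF columns mostly above the mean, with Ndufa4l2 and Cox4i2 the other way round.

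Among the members that differed between the tissues, more were lower in NP than were higher. Tests were run with limma on log2(scaled FPKM + 1) over the 16383 genes that passed the filter, with Benjamini-Hochberg adjustment, and a gene was called at an adjusted p under 0.05. Of the 82 members tested in the vehicle groups, 30 were called lower in NP and 5 higher, while 47 did not pass. The 35 calls are 42.7% of the members, and 55.7% of all genes were called. The 30 lower calls are 36.6% of the members, and 33.9% of all genes tested were called lower, so this share is near the background. The 5 higher calls are 6.10% of the members, against 21.8% of all genes. The median log2 difference of the members was -0.35, and that of all genes was -0.08. In the MDL-800 groups, which are separate libraries, 43 members were called lower in NP (52.4%, with 37.2% of all genes) and 6 higher (7.32%, with 25.6% of all genes), with a median of -0.38. The 49 calls are 59.8% of the members, against 62.8% of all genes. Called lower in both comparisons were 26 members, which is 86.7% of the vehicle list and 60.5% of the MDL-800 list. Called higher in both were 4, and 0 were called in opposite directions.

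By complex, 11 of 37 complex I genes (29.7%), 3 of 4 in complex II (75.0%), 3 of 8 in complex III (37.5%), 6 of 16 in complex IV (37.5%) and 7 of 17 in complex V (41.2%) were lower in NP vehicle. With 33.9% of all genes called lower, the share of complex I was below the background and those of complexes III and IV were near it. In the MDL-800 groups the counts were 14 (37.8%), 4, 5 (62.5%), 8 (50.0%) and 12 (70.6%), with 37.2% of all genes. The 5 vehicle genes that were higher were Ndufa4l2 and Ndufa8 (complex I), Cox4i2 and Cox7a2l (complex IV) and Atp5g2 (complex V). The NP and AF vehicle libraries did not overlap for 15 members that were lower and 3 that were higher (25.9% and 15.1% of all genes), and in the MDL-800 groups for 33 and 3 (30.5% and 18.5% of all genes). Without NP vehicle libraries 1 and 2, 22 members were called in vehicle (4 higher, 18 lower), all of them among the 35, while 47.2% of all genes were still called.

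**Figure D2:**
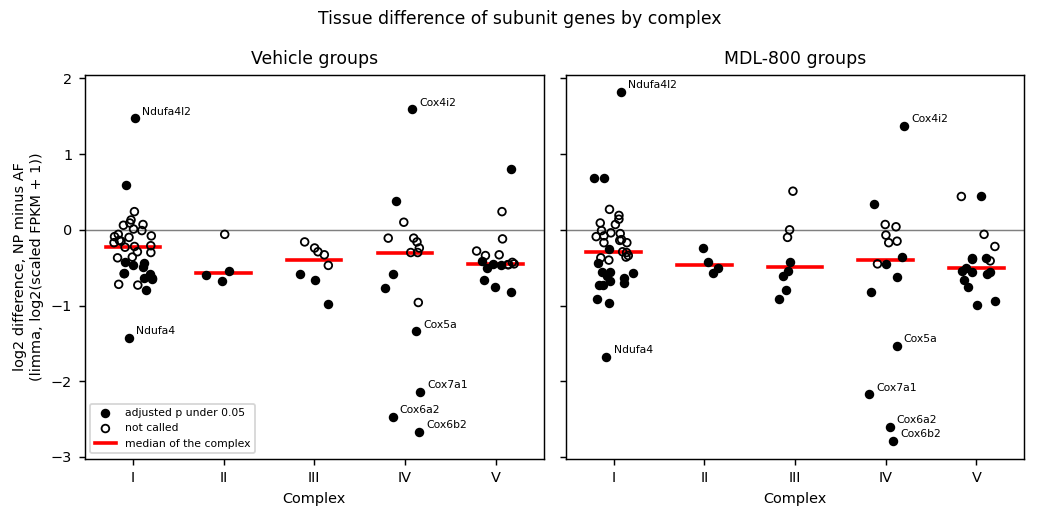
Points are the 82 tested members, placed by complex on the x axis, and the y axis is the log2 difference NP minus AF from limma, in the vehicle groups on the left and the MDL-800 groups on the right. Filled points passed an adjusted p of 0.05 and red lines are the medians of each complex, which lie between -0.23 and -0.57 in vehicle and between -0.29 and -0.50 in the MDL-800 groups.

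Of the 28 accessory genes of complex I other than Ndufa4 and Ndufa4l2, 7 were lower and 1 higher in NP vehicle. In NP MDL-800, 8 were lower and 2 higher, so that most did not pass under either treatment. Of all genes tested, 33.9% were called lower and 21.8% higher in NP vehicle, and 37.2% and 25.6% in NP MDL-800. The shares of the accessory genes were below these. Ndufa3, a small accessory subunit, had FPKM values of 65.5, 66.4, 58.2, 53.0 and 49.8 in NP vehicle libraries 1, 2, 3, 5 and 6 and of 91.8, 134, 76.6, 138 and 86.9 in AF vehicle libraries 8, 9, 10, 12 and 13; all later lists keep this order. The lowest AF value was above the highest NP value (log2 difference -0.80, SE 0.17, limma adjusted p = 0.00254). Ndufa8, an accessory subunit with disulphide bonds that is imported into the intermembrane space, went the other way. Its values were 86.5, 88.6, 115, 105 and 97.0 in NP vehicle and 57.1, 97.4, 65.9, 57.99 and 51.9 in AF vehicle. Only AF library 9 reached the NP range (log2 difference 0.59, SE 0.16, limma adjusted p = 0.00964).

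Ndufa4 and Ndufa4l2 had opposite patterns. Ndufa4 (chr6:11900292-11907497, minus strand) was at 48.3, 56.2, 61.2, 45.2 and 54.0 in NP vehicle and at 109.8, 159, 112, 244 and 127 in AF vehicle. In MDL-800 it was at 56.5, 37.9, 44.9, 39.1 and 42.4 in NP libraries 15, 18, 19, 20 and 22 and at 113, 160.3, 117, 201 and 138 in AF libraries 25, 27, 28, 29 and 30. The NP and AF libraries did not overlap under either treatment, and the NP level was 0.372 times the AF level in vehicle (log2 difference -1.43, SE 0.21, limma adjusted p = 0.000189) and 0.311 times in MDL-800 (-1.68, SE 0.17, limma adjusted p = 1.18e-05). AF libraries 12 and 29, which also had the highest muscle marker sums, had the highest Ndufa4 levels.

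Ndufa4l2, a paralogue known as a target of the hypoxia-inducible factor HIF-1, lies on chr10:127514967-127517154. With vehicle its levels were 832, 1063, 902, 1312 and 1396 in NP and 403, 642, 646, 248 and 211 in AF. With MDL-800 they were 1401, 1414, 1807, 1551 and 1579 in NP and 626, 454, 275, 459 and 446 in AF. Every NP library exceeded every AF library of the same treatment, by a log2 difference of 1.47 in vehicle (SE 0.33, limma adjusted p = 0.00305) and 1.82 in MDL-800 (SE 0.19, limma adjusted p = 1.95e-05). The gene overlaps Shmt2 on the opposite strand, which averaged 29.4 FPKM; the kit is stranded, but whether counting used the strand is not given in the sources used here. The FPKM ratio of Ndufa4l2 to Ndufa4 within a library was 14.7 to 29.0 for NP and 1.02 to 5.79 for AF under vehicle, and 24.7 to 40.2 for NP and 2.28 to 5.52 for AF under MDL-800.

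Complex II consists of 4 proteins, all nuclear. Sdha, the flavoprotein, was at 81.5, 80.8, 71.4, 64.6 and 64.1 in NP vehicle and 65.4, 80.4, 70.2, 93.3 and 70.4 in AF vehicle, and these ranges overlapped almost fully (log2 difference -0.06, SE 0.12, limma adjusted p = 0.681). Sdhb, the iron-sulphur subunit, was at 27.6, 28.5, 45.8, 36.4 and 34.6 in NP vehicle and 51.2, 59.9, 54.6, 62.7 and 46.0 in AF vehicle. Here the highest NP library was just under the lowest AF library (-0.67, SE 0.14, limma adjusted p = 0.00256). Of the membrane anchors, Sdhd was lower in NP vehicle (-0.54, SE 0.12, limma adjusted p = 0.00296), with 43.2, 49.0, 62.9, 56.4 and 53.6 against 74.4, 87.8, 70.7, 85.4 and 67.5. Sdhc was called lower as well (-0.60, SE 0.19, limma adjusted p = 0.0203), but its NP values, 25.0, 26.7, 54.9, 38.1 and 36.1, were lowest in libraries 1 and 2. Without library 2 the call was lost (-0.51, adjusted p = 0.052), as it was without both (-0.32, adjusted p = 0.123). In the MDL-800 groups Sdhb (-0.43), Sdhc (-0.51) and Sdhd (-0.57) were called with adjusted p of 0.00346, 0.00231 and 0.000266 by limma. Sdha, at -0.24 and 0.0441, was lost when any NP library or any of AF libraries 27, 28 and 29 was left out, with adjusted p of 0.0563 to 0.0938. With all libraries kept, its call was also lost under several other settings. Among them were quantile normalization (-0.14, limma adjusted p = 0.241), the GC trend removed (-0.19, 0.0731) and all 4 groups in 1 fit (-0.24, 0.0549). Without the muscle-rich AF libraries 27 and 29 it was at -0.12 (adjusted p = 0.207).

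Complex III genes were lower in NP where they passed. The core proteins Uqcrc1 and Uqcrc2 and the Rieske iron-sulphur protein Uqcrfs1 were called lower in NP in 2 of 3 cases in vehicle and in 3 of 3 in MDL-800. The 5 small subunits were called lower in 1 and in 2 cases. With 33.9% and 37.2% of all genes called lower, the small subunits were below the background in vehicle and near it in MDL-800. Uqcrc1 was at 26.0, 29.8, 47.2, 37.6 and 40.1 in NP vehicle and 72.0, 80.2, 62.3, 71.3 and 67.8 in AF vehicle. The gap between the tissues was wide: the NP level was 0.509 times the AF level (log2 difference -0.98, SE 0.15, limma adjusted p = 0.00031), and in MDL-800 it was 0.529 times (-0.92, SE 0.11, limma adjusted p = 3.88e-05). Uqcrfs1 was at 23.04, 26.5, 30.7, 23.2 and 21.8 in NP vehicle and 33.7, 49.0, 33.8, 55.6 and 32.6 in AF vehicle, again apart (-0.66, SE 0.17, limma adjusted p = 0.00617).

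In vehicle, complex IV held the member with the largest rise, Cox4i2, and the member with the largest fall, Cox6b2. Of its 10 commonly expressed subunits, 3 were lower in NP under vehicle and 5 under MDL-800, and 0 were higher. Among all genes, 33.9% were called lower in vehicle and 37.2% in MDL-800, so the vehicle count was near the background. Called higher were 21.8% and 25.6% of all genes. Cox5a, a matrix-side subunit, was the one that differed most, at 40.1, 36.2, 51.5, 37.5 and 34.5 in NP vehicle and 89.5, 116, 72.5, 169.6 and 85.0 in AF vehicle. All NP libraries were below all AF libraries, and the NP level was 0.395 times the AF level (log2 difference -1.34, SE 0.21, limma adjusted p = 0.00034); in MDL-800 it was 0.347 times (-1.53, SE 0.16, limma adjusted p = 1.96e-05). Cox4i1, the common form of subunit 4, did not pass in vehicle (-0.30, limma adjusted p = 0.081), with 242, 276, 317, 322 and 281 in NP and 295, 432, 359.5, 372 and 314 in AF. It passed when AF library 8 was left out, with an adjusted p of 0.0494. Cox7a2l was called higher in NP vehicle (0.38, SE 0.13, limma adjusted p = 0.0345), with 284, 277, 217, 221 and 240.3 in NP and 174, 238, 182, 206 and 158 in AF. Its groups overlapped, and the call was lost when any of NP libraries 1, 2 and 6 or AF libraries 8, 10 and 13 was left out, with adjusted p of 0.0557 to 0.082. Without both NP libraries 1 and 2 it was at 0.25 (adjusted p = 0.201). Cox4i1 overlaps a predicted gene on the same strand, Gm20388, at a mean of 50.5 FPKM.

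Cox4i2, the isoform of subunit 4 known for expression in lung and for induction at low oxygen, was higher in NP. Its levels were 545, 372, 265, 284 and 291 in NP vehicle and 129, 213, 98.0, 100.2 and 64.2 in AF vehicle, so that the lowest NP library was above the highest AF library (log2 difference 1.59, SE 0.30, limma adjusted p = 0.00109). In MDL-800 the values were 368, 218, 522, 455 and 405 in NP and 363, 129, 75.6, 139.6 and 131 in AF (1.37, SE 0.37, limma adjusted p = 0.00796). There AF library 25 lay within the NP range and the other AF libraries lay below it. The ratio of Cox4i2 to Cox4i1 was 0.837 to 2.26 in NP vehicle and 0.205 to 0.493 in AF vehicle. Cox4i2 is also known as a gene of pericytes, the contractile cells of small vessels. In NP vehicle the medians of 5 pericyte genes (Rgs5, Kcnj8, Abcc9, Notch3 and Higd1b) were 0 to 0.573, with Higd1b at 0, and in AF vehicle 0.371 to 40.1. Of the 8 tested genes on the list of pericyte and smooth muscle markers, 5 were called lower in NP vehicle (Rgs5, Des, Kcnj8, Abcc9 and Notch3), 2 were called higher (Acta2 by 2.12 and Myh11 by 1.19 on the log2 scale) and Cnn1 did not pass. The sum of all 9 pericyte and smooth muscle markers was 508 to 1092 in NP vehicle and 215 to 551 in AF vehicle, most of it Acta2. The part of these cells in the Cox4i2 difference was not tested.

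Of the 3 complex IV isoforms typical of striated muscle, Cox6a2 and Cox7a1 were called lower in NP in both comparisons and Cox8b in neither, and AF libraries also held more muscle RNA. Cox6a2 was at 0, 0, 4.07, 0.710 and 0.109 in NP vehicle and 3.43, 13.0, 6.56, 16.1 and 5.14 in AF vehicle (log2 difference -2.47, SE 0.50, limma adjusted p = 0.00176). Only NP library 3, the NP library with the highest muscle marker sum (1178), reached the AF range. Cox7a1, the heart and muscle form of subunit 7a, was at 2.06, 5.83, 23.1, 8.39 and 5.31 in NP vehicle and 5.51, 54.1, 33.7, 132 and 28.7 in AF vehicle. The groups overlapped and the call (-2.14, SE 0.74, limma adjusted p = 0.0299) was lost when any of NP libraries 1, 2 or 6 or AF libraries 9, 10 or 12 was left out, with adjusted p of 0.0521 to 0.0729. Without both NP libraries 1 and 2 it was at -1.62 (adjusted p = 0.16). In MDL-800 Cox7a1 was at -2.17 (limma adjusted p = 0.0126) and Cox8b at -0.45 (limma adjusted p = 0.441). Cox8b, the muscle form of subunit 8, did not pass, with 34.6, 31.5, 64.0, 62.4 and 40.3 in NP and 24.2, 159, 95.7, 211 and 66.1 in AF (-0.96, SE 0.50, limma adjusted p = 0.126). Without AF library 8, the lowest, it did (-1.42, adjusted p = 0.00672). In contrast to Cox6a2 and Cox7a1, Cox8b was at 31.5 FPKM or more in each NP library.

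**Figure D3:**
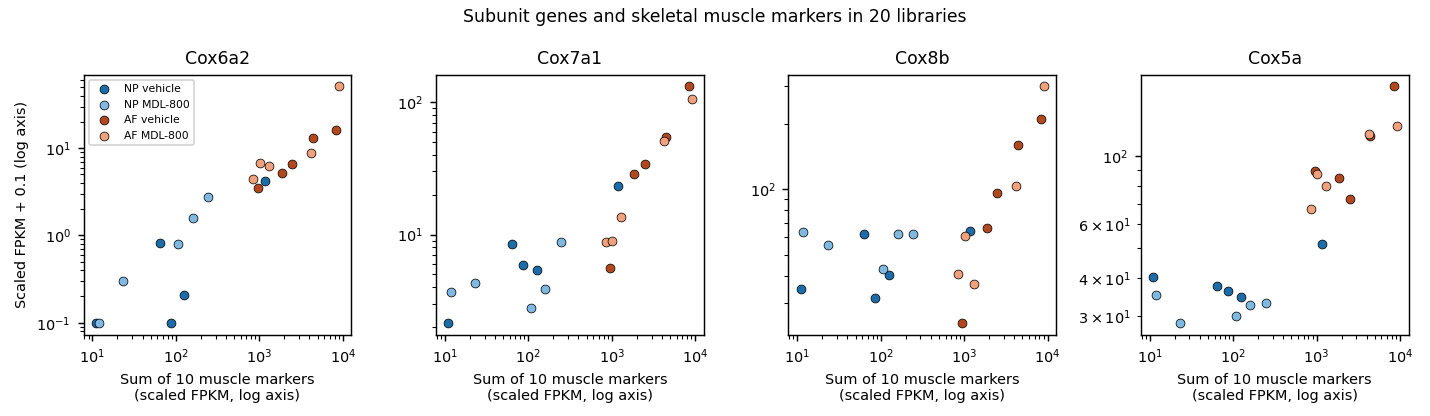
Each point is a library, coloured by group; the x axis is the sum of 10 skeletal muscle markers in scaled FPKM and the y axis is scaled FPKM + 0.1 of the gene in the panel title, both log axes. AF libraries 12 and 29, with sums of 8398 and 9095, have the highest Cox6a2, Cox7a1 and Cox8b values of their groups. Cox8b is also at 31.5 FPKM or more in NP libraries with marker sums as low as 11.0.

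The part of muscle RNA in these differences was not tested, but the values without the muscle-rich libraries are as follows. Leaving out NP vehicle 3 and AF vehicle 9 and 12, which was decided after seeing the data, 34 members were called in vehicle (8 higher, 26 lower), of which 30 were among the 35, and 53.5% of all genes were called. Cox6a2 then differed by -2.33, Cox5a by -1.13 and Ndufa4 by -1.18 on the log2 scale, Cox8b by -0.39, and Cox7a1 by -1.67 with an adjusted p of 0.053. Leaving out AF MDL-800 27 and 29 in the same way, 42 members were called (6 higher, 36 lower) and 61.1% of all genes, with Cox6a2 at -1.90, Cox7a1 at -1.07 and Cox8b at 0.33. Cox4i2 (1.94 and 1.30) and Ndufa4l2 (1.57 and 1.86) stayed higher in NP. Cox6b2, the testis form of subunit 6b, did not follow the muscle markers: it was at 1.60, 1.91, 0.728, 0.937 and 5.59 in NP vehicle and 27.3, 24.0, 16.5, 6.53 and 17.7 in AF vehicle, with its lowest AF value in library 12, and differed by -2.67 (SE 0.42, limma adjusted p = 0.000321) with all libraries and by -2.75 without the muscle-rich ones.

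Of 12 complex V genes for the catalytic head, the stalk and the membrane part, 5 were called lower in NP under vehicle and 11 under MDL-800. The vehicle count was a little above the 33.9% of all genes called lower, and the MDL-800 count was well above the 37.2% there. Both backgrounds also stand beside the counts that follow. In vehicle the 3 genes for the c ring were split. Of 5 head genes (Atp5a1, Atp5b, Atp5c1, Atp5d and Atp5e) 3 were lower in NP under vehicle and 4 under MDL-800; of 4 stalk genes (Atp5f1, Atp5h, Atp5j and Atp5o) 2 and 4; and of the small membrane genes Atp5j2, Atp5k and Atp5l 0 and 3. Atp5b was at 328, 353, 352, 297 and 294 in NP vehicle and 455, 570.2, 428, 697 and 457 in AF vehicle, apart (log2 difference -0.66, SE 0.15, limma adjusted p = 0.00337). In MDL-800 it was at 243, 245, 247, 244 and 289 in NP and 429, 551, 465, 562 and 526 in AF, where the NP level was 0.503 times the AF level (-0.99, SE 0.10, limma adjusted p = 1.77e-05). Atp5o, the subunit that ties the head to the stalk, had the largest fall in vehicle (-0.82, SE 0.17, limma adjusted p = 0.0017), from 156, 221, 171, 287 and 157 in AF to 101, 109, 122, 102 and 109.6 in NP. Atp5s was higher in NP MDL-800 (0.45, SE 0.13, limma adjusted p = 0.0124), with 11.1, 7.47, 9.97, 10.7 and 10.6 against 7.15, 7.91, 8.34, 6.07 and 5.67. The call was lost when libraries were scaled to the same sum (0.39, adjusted p = 0.0594).

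Atp5g1, Atp5g2 and Atp5g3 encode the same mature c subunit with different targeting peptides, so a change in one gene need not change the protein's sequence. Atp5g1 was at 53.1, 50.7, 103, 90.6 and 81.4 in NP vehicle and 119.6, 163, 109.9, 136 and 102 in AF vehicle (-0.76, SE 0.21, limma adjusted p = 0.0105). NP libraries 1 and 2 were the lowest, and without them the value was -0.44 with an adjusted p of 0.0569. Atp5g3 was called too (-0.45, adjusted p = 0.0218), and lost without NP libraries 1 and 2 (-0.42, adjusted p = 0.0936), without library 1 alone (0.0514) and without library 6 alone (0.0504). Atp5g2 was the exception, at 35.5, 33.1, 23.8, 29.8 and 27.5 in NP vehicle and 14.9, 17.6, 14.9, 20.3 and 15.9 in AF vehicle, all NP libraries above all AF libraries (0.80, SE 0.13, limma adjusted p = 0.00036). In MDL-800 it spanned 15.6, 14.3, 24.4, 30.2 and 30.2 in NP and 11.9, 23.01, 10.6, 20.2 and 17.2 in AF and did not pass (0.44, SE 0.27, limma adjusted p = 0.179). Whether the tissue difference changed with treatment was part of the interaction test, in which 0 members were called.

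Upstream sequences are shown for 5 members: 2 c-ring genes that went in opposite directions in vehicle, Ndufa4, and 2 muscle isoforms with different levels in NP. Sequences are from RefSeq on GRCm38.p6, the build that mm10 names, and hold the bases before the annotated start with annotated exon bases left out, in the direction of transcription. Capitals mark matches, on either strand, to the core of the hypoxia response element (ACGTG), to the ETS-type element of the GABP factor (CGGAAG), to the NRF1 element (GCGCA and GCGC with any 1 base between them) or to a muscle E-box (CAGCTG). Atp5g1 (chr11:96075671-96075881, minus strand) and Atp5g2 (chr15:102671128-102671297, minus strand) are the c-ring genes that were lower and higher in NP. The Atp5g2 stretch lies inside the span of its gene in GENCODE M21 (chr15:102662864-102672352). It precedes a RefSeq start that is downstream of the first start in GENCODE, so its matches are not upstream of the whole gene. Ndufa4 (chr6:11907498-11907700, minus strand) was lower in NP. Cox7a1 (chr7:30183921-30184143, plus strand) and Cox8b (chr7:140900447-140900696, minus strand) are the muscle isoforms with very low and with higher NP levels.
Atp5g1: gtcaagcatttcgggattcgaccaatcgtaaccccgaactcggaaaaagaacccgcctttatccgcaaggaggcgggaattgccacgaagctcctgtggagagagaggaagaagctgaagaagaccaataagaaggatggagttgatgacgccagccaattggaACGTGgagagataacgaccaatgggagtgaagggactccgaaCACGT
Atp5g2: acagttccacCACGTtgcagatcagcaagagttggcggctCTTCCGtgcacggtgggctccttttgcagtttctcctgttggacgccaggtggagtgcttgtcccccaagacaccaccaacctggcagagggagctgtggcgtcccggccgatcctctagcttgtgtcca
Ndufa4: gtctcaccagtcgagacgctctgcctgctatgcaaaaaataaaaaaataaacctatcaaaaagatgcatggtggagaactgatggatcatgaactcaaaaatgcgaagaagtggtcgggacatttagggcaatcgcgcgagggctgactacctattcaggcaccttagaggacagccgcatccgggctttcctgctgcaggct
Cox7a1: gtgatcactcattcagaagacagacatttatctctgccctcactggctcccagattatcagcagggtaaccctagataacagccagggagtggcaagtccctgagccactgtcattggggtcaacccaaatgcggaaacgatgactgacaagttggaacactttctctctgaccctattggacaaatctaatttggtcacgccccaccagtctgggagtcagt
Cox8b: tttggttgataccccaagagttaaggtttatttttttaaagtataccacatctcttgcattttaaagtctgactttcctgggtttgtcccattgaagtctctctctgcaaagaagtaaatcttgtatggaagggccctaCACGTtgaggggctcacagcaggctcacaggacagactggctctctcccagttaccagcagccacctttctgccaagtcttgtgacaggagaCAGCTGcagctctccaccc
The stretch of Atp5g1 holds 2 ACGTG matches. That of Atp5g2 holds 1 ACGTG and 1 CGGAAG match, and that of Cox8b 1 ACGTG and 1 CAGCTG match. None of the 4 motifs was found in those of Ndufa4 and Cox7a1.

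Over the 250 bases before the start, 71 promoters of 66 members were in the RefSeq table, and Cox4i2, Ndufa4l2 and Cox6a2 were among the 18 members without an entry. The ACGTG core was in 14 of the 71 (19.7%), close to the 16.6% of 32851 promoters of all genes. CGGAAG was in 21 (29.6%, against 13.6%) and the NRF1 element in 14 (19.7%, against 3.74%). CAGCTG was in 6 (8.45%, against 13.0%). By complex, the CGGAAG share was highest for complex V, in 8 of 16 promoters. A match describes letters in this window and not a bound site, and several members have more than 1 annotated start.

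Isoform ratios, as log2 ratios of FPKM + 0.1, were put to an exact permutation test over libraries, which was two-sided. There were 5 pairs and 4 comparisons, 20 tests in all, adjusted together, and the smallest p that 5 against 5 allows is 0.0079. The ratio of Ndufa4l2 to Ndufa4 was higher in NP by 2.92 in vehicle (exact adjusted p = 0.0397) and by 3.52 in MDL-800 (exact adjusted p = 0.0397), in 5 of 5 NP libraries above every AF library. Cox4i2 to Cox4i1 was higher by 1.90 (exact adjusted p = 0.0397) and by 1.55 (exact adjusted p = 0.0454). Cox6a2 to Cox6a1 was lower in NP by a log2 difference of -4.17 (exact adjusted p = 0.0454) and -3.96 (exact adjusted p = 0.0397). Since Cox6a2 was at 0 in NP vehicle libraries 1 and 2 and NP MDL-800 library 19, the size of these differences depends on the added 0.1. Cox7a1 to Cox7a2 was at -2.40 (exact adjusted p = 0.0529) and -2.44 (exact adjusted p = 0.0454), while Cox8b to Cox8a, at -0.87 and -0.30, did not pass in either. So the shift to Ndufa4l2 and Cox4i2 in NP was measured within libraries, where the scaling between libraries has no part. A ratio does not remove differences in GC composition between libraries. Ndufa4l2 has a GC content of 59.0% and Ndufa4 of 43.8%, and the lowest AF vehicle ratio of this pair was in library 12, whose GC slope was -0.26. The part of GC composition in the tissue difference of the ratios was not tested. With a library left out, 4 against 5 allows fewer arrangements, and the adjusted p of these ratios then rose above 0.05 in most cases.

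**Figure D4:**
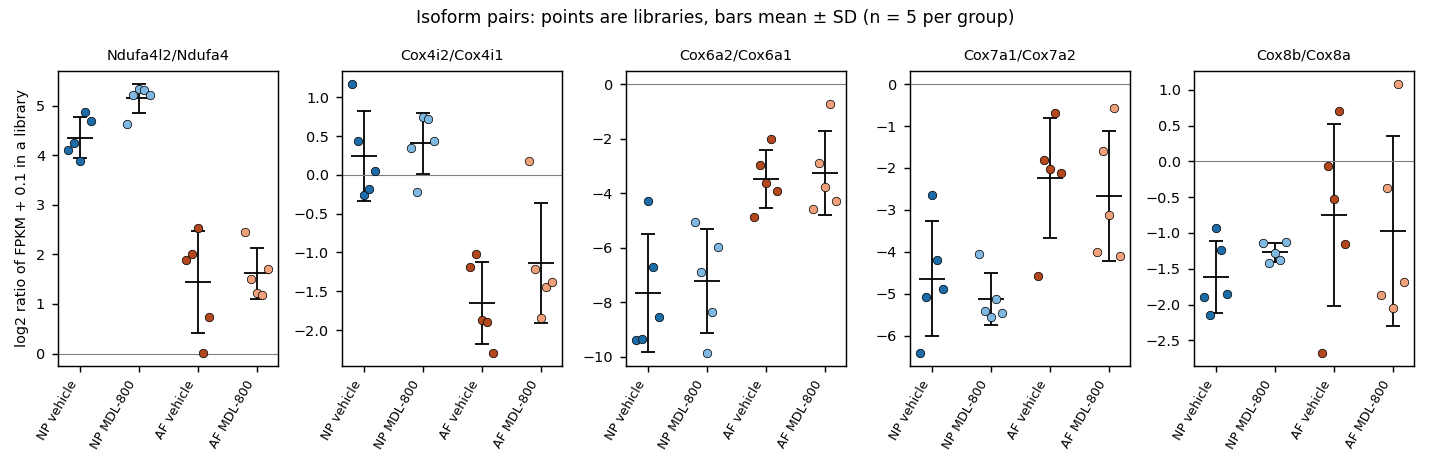
Points are libraries, bars are means with SD (n = 5 per group), and the y axis is the log2 ratio of FPKM + 0.1 of the 2 genes in the panel title. The Ndufa4l2/Ndufa4 panel has all NP libraries above all AF libraries, and the Cox8b/Cox8a panel has NP inside the AF range.

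MDL-800 was compared with vehicle in NP to see whether treatment changed the members. By limma, 0 of 82 members passed at an adjusted p under 0.05, and 41 of all genes did (0.232% higher and 0.0183% lower). At an unadjusted p under 0.05, 12 members were higher and 12 lower (14.6% each), with 9.11% and 4.99% of all genes. The median difference was -0.05, and that of all genes was -0.03. This comparison shares the NP vehicle libraries with the tissue comparison in vehicle. The groups did not overlap for 5 members that were higher with MDL-800 (Uqcr11, Ndufb7, Ndufa7, Ndufa4l2 and Cox6a1; 6.10%, against 3.5% of all genes) and for 3 that were lower (Ndufs4, Atp5b and Atp5f1; 3.66%, against 1% of all genes).

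Uqcr11, a small subunit of complex III, came closest to the threshold. It was at 37.2, 37.3, 50.6, 72.9 and 63.1 with vehicle and at 104, 79.5, 152, 143 and 126 with MDL-800 in NP (log2 difference 1.21, SE 0.23, limma adjusted p = 0.0608). Every treated library was above every vehicle library, and vehicle libraries 1 and 2 were the lowest. It passed without NP vehicle library 6 (adjusted p = 0.0431) and with a filter of 5 FPKM (0.0447). Without vehicle libraries 1 and 2 the difference was 0.92 with an adjusted p of 0.195. In AF its values were 65.4, 79.4, 60.5, 53.0 and 53.2 in vehicle and 81.95, 50.0, 59.1, 117 and 133 in MDL-800 (0.41, limma adjusted p = 1.0).

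The other members that did not overlap were spread over complexes I, IV and V. Ndufb7, an accessory subunit of complex I, was at 4.78, 4.89, 15.6, 18.2 and 13.9 with vehicle and 19.4, 19.9, 28.4, 29.1 and 25.9 with MDL-800 in NP (1.20, SE 0.35, limma adjusted p = 0.153). Vehicle libraries 1 and 2, at 4.78 and 4.89, were far below the rest, and without them the difference was 0.58. Ndufa7, another accessory subunit, was at 114, 112, 148, 141 and 132 in vehicle and 173, 149, 217, 176 and 194 in MDL-800 (0.49, SE 0.11, limma adjusted p = 0.0897). Both genes were chosen after their values were seen. Cox6a1, the common form of subunit 6a, was at 71.1, 66.8, 82.2, 83.1 and 75.9 in vehicle and 90.4, 94.6, 92.3, 101 and 98.3 in MDL-800 (0.33, SE 0.07, limma adjusted p = 0.0787). These 3 genes had their lowest vehicle values in libraries 1 and 2, without which Ndufa7 was at 0.36 (adjusted p = 0.321) and Cox6a1 at 0.24 (adjusted p = 0.223).

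Ndufa4l2, already the highest member in NP vehicle, had a mean of 1550 ± 164 (SD, n = 5) in NP MDL-800 against 1101 ± 247 (SD, n = 5) in vehicle (log2 difference 0.52, SE 0.16, limma adjusted p = 0.179). The lowest treated value, 1401, was just above the highest vehicle value, 1396. Ndufa4 differed by -0.26 (limma adjusted p = 0.351), and the ratio of the 2 genes was higher with MDL-800 by 0.78 on the log2 scale, with an exact p of 0.0238 and an exact adjusted p of 0.0529. With 1 library left out, the exact adjusted p ranged from 0.0454 (without NP MDL-800 library 15, whose ratio was the lowest of its group) to 0.1058. The genes differ in GC content (59.0% for Ndufa4l2 and 43.8% for Ndufa4), and with the GC trend of each library removed they differed by 0.23 and -0.15. Without NP vehicle libraries 1 and 2 they differed by 0.38 and -0.27 (limma adjusted p of 0.473 and 0.56). Among members with lower values, Atp5b was at 328, 353, 352, 297 and 294 in vehicle and 243, 245, 247, 244 and 289 in MDL-800 (-0.35, SE 0.08, limma adjusted p = 0.0895), and all treated libraries were below all vehicle libraries. Uqcrc2, a core protein of complex III, was at 76.4, 82.3, 73.8, 67.4 and 72.6 in vehicle and 53.2, 51.5, 68.9, 58.3 and 63.6 in MDL-800 (-0.33, SE 0.09, limma adjusted p = 0.124). The ranges of Uqcrc2 overlapped by a single treated library.

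Treatment differences in NP moved with the GC content of the transcripts. Of the 19 members with a GC content of 55% or more, 15 were higher in NP MDL-800, with a median of 0.25, and of the 35 members under 50%, 7 were higher, with a median of -0.15. The 28 members in between had a median of -0.01, with 11 higher. After a smooth trend on GC content (a spline curve) was taken out of each library, these medians were 0.02, -0.04 and 0.01, and 10, 13 and 14 members were higher. Uqcr11 then differed by 0.91 (limma adjusted p = 0.0883), Ndufb7 by 1.03 and Ndufa7 by 0.48, while Ndufa4l2 was at 0.23 (limma adjusted p = 0.663), Cox6a1 at -0.05 and Atp5b at -0.27. The pattern over the members as a group was smaller after the trend was taken out, which largely follows from taking it out. Uqcr11 and Ndufb7 kept most of their difference in this setting, but both differences were smaller without NP vehicle libraries 1 and 2, as given above. The slopes on GC content were -0.31 to -0.01 with vehicle and 0.03 to 0.10 with MDL-800, so they did not overlap between the groups, and GC composition and treatment cannot be told apart from these libraries alone.

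**Figure D5:**
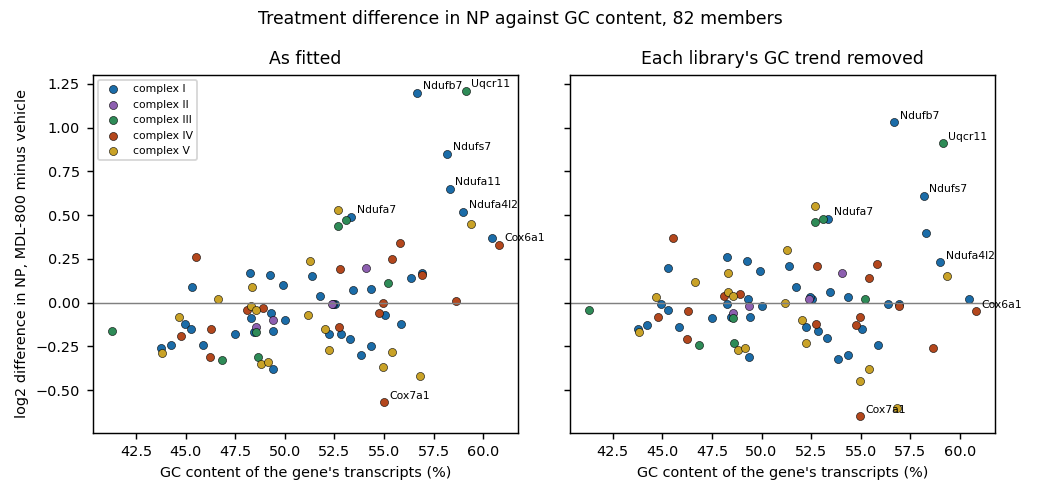
Points are the 82 tested members, coloured by complex; the x axis is the GC content of the gene's transcripts in percent and the y axis is the log2 difference in NP, MDL-800 minus vehicle, as measured on the left and after the GC trend of each library was removed on the right. The upward slope on the left is absent on the right, where Uqcr11 (0.91) and Ndufb7 (1.03) are the highest points.

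In AF, MDL-800 and vehicle libraries overlapped for all 82 tested members. By limma 0 were called, as for all genes (0%), and 0 had an unadjusted p under 0.05 (0.922% of all genes higher and 0.726% lower). The differences ranged from -0.54 to 0.47 with a median of 0.00. The smallest p among positive differences belonged to Atp5sl (0.25, SE 0.15, limma adjusted p = 1.0), with 9.36, 10.7, 7.94, 5.99 and 9.68 in vehicle and 11.3, 8.53, 10.2, 12.0 and 10.2 in MDL-800. Among negative ones the smallest were those of Atp5k (-0.24) and Atp5l (-0.16), with limma adjusted p of 1.0 for both. The AF libraries spread widely for many members: Uqcr11, for example, ranged from 50.0 to 133 in AF MDL-800. A difference between the treatment effects in NP and AF was called by limma for 0 members and 0% of all genes. Only 2 members had an unadjusted p under 0.05 (1 in each direction), with 3.73% of all genes, so the effects in NP and AF were not shown to differ.

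The genes around the chain were followed in lists drawn up from textbook knowledge. Cytochrome c (Cycs) and cytochrome c1 (Cyc1) were lower in NP vehicle by log2 differences of -0.63 and -0.75 (limma adjusted p of 0.00913 and 0.00031). The counts that follow stand beside 33.9% of all genes called lower and 21.8% called higher in NP vehicle. Of 13 citrate cycle genes 10 were lower (76.9%) and 1 higher, with a median of -0.51. Citrate synthase (Cs) was at -1.04 (limma adjusted p = 7.82e-05) and Dlst, of the oxoglutarate dehydrogenase complex, at -0.71. Of 10 genes of ubiquinone synthesis 5 were lower (50.0%) and 0 higher. Calls among genes for assembly of the complexes were as follows. Of 15 complex I assembly genes 2 (13.3%) were lower (Ecsit and Ndufaf5) and 0 higher, with a median of 0.08, and of 21 complex IV assembly genes 2 were lower and 2 higher (9.52% each), with a median of -0.07. For complex II 0 of 4 assembly genes were called, for complex III 1 of 6 (Ttc19, higher, 0.40), and for complex V and its inhibitor 2 of 4 (50.0%, Atpif1 at -0.71 and Atpaf2 at -0.40, both lower).

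Regulators and carriers were mixed. Of 11 regulators of mitochondrial biogenesis 4 were lower in NP vehicle (36.4%, near the 33.9% of all genes), among them Nrf1, the factor of the NRF1 element (-0.78, limma adjusted p = 0.000336), and Ppargc1b (-0.87, limma adjusted p = 0.00344). Slc25a5, an ADP/ATP carrier of the inner membrane, was among the 3 of 14 import and carrier genes that were lower (-2.08, limma adjusted p = 1.42e-05), and Vdac2, a channel of the outer membrane, was 1 of 2 that were higher (0.46). The mitochondrial response to hypoxia had the opposite direction, as Ndufa4l2 and Cox4i2 did: 5 of 6 genes were higher in NP vehicle (83.3%, with 21.8% of all genes) and 0 lower, with a median of 1.37. Bnip3, a mitophagy receptor, was at 1.90 (limma adjusted p = 0.000271) and Egln3, an oxygen-sensing hydroxylase, at 1.79 (limma adjusted p = 0.000102). The pyruvate dehydrogenase list was near the background: of its 10 genes 2 were higher (20.0%) and 3 lower (30.0%), with a median of -0.13. In it, Pdk1, a kinase that inhibits pyruvate dehydrogenase, was higher by 0.98 (limma adjusted p = 0.000155). Pdhx, a structural part of that enzyme, was at -1.05 (limma adjusted p = 0.000384). By limma, 0 genes of these lists were called for MDL-800 against vehicle in either tissue.

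A few members can be measured less well than the rest. Among the 84, 19 have a copy elsewhere in the genome with at least 95% identity, and for 2 of them the copies held more than 5% of the summed FPKM. Ndufb4 averaged 21.9 FPKM while its copy Gm3244 averaged 152, so how reads were shared between them sets its level. Atp5l averaged 220 and its 8 copies together held 11.7% of the sum. The members are short, with a median transcript of 617.5 nucleotides against 1353 for all genes tested, and the way effective length entered the FPKM is not given in the sources used here.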

How the data were processed

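The authors deposited 1 table of FPKM values with a column for each of 20 libraries and 51789 genes, rounded to 2 decimals. Reads were aligned with STAR 2.7.11b to mm10, per the submitters' processing notes; the counting program, annotation and treatment of multi-mapping reads are not given in the sources used here. Per the labels' protocols, libraries were stranded total RNA after ribosomal depletion, from 50 ng of RNA and 14 PCR cycles.

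Because FPKM hold no counts, tests were run on a log scale. Each library was divided by a factor (0.933 to 1.06), its median ratio to the gene-wise geometric mean, taken over the 11308 genes that reached 1 FPKM in every library. The 16383 genes that reached 1 FPKM in 5 or more libraries were tested with limma 3.58.1 in R 4.3.3 (eBayes with a mean-variance trend, the 2 groups compared only, two-sided, Benjamini-Hochberg over all genes) on log2(scaled FPKM + 1), a scale that understates changes of low genes. The interaction used all 4 groups. Isoform ratios were tested in Python 3.11.15 with scipy 1.17.1. The tests were tried on simulated data. Symbols had coordinates, GC content and transcript length from GENCODE M21, and all 84 members were found there.

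Genes were named by rule: per complex and comparison, the called members with the largest rise and fall at a mean of 5 FPKM or more in the higher group; without calls, the 2 smallest p in each direction; always the isoform pairs and complex II; the highest member of each complex in NP vehicle; and up to 2 called genes per other list. Further members named are Ndufa3, Ndufa7, Ndufa8, Ndufb7, Uqcrfs1, Cox5a, Cox7a2l, Atp5g1 and Atp5g3, chosen after their values were seen, and members listed to complete a count; 1 result on complex I is not reported here. The members, lists and rules were chosen with earlier results of these data known. Alternatives covered the pseudocount, the filter, the scaling, GC and length trends, the variance model, the groups in the fit and each library left out.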

Additional observations from a re-analysis of the deposited data

Results flagged for a closer look

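Within each group of 5 libraries, the gap between the most extreme library and its neighbour was compared with the range of the group for named genes and isoform ratios, 156 sets in all. Chance alone marks about 1 set in 20, and 12 were marked. In NP vehicle, Cox6a2 was at 4.07 in library 3 (next 0.710 FPKM) and Cox6b2 at 5.59 in library 6 (next 1.91). In NP MDL-800, library 22 had the highest Atp5b, 289 (next 247), and Uqcrfs1, 27.7 (next 21.6). Library 15 of that group had the highest Cox7a1, 8.76 (next 4.20), the highest log2 ratio of Cox7a1 to Cox7a2, -4.04 (next -5.13), and the lowest log2 ratio of Ndufa4l2 to Ndufa4, 4.63 (next 5.22). In AF MDL-800, library 29 had the highest Cox6a2, 51.0 (next 8.67), Cox8b, 298 (next 104) and Sdhc, 65.7 (next 47.8). Library 25 of that group had the highest Cox4i2, 363 (next 140), and library 30 the highest Cox8a, 196 (next 151).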

How the results depend on the processing

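Without NP vehicle libraries 1 and 2, 22 members were called between the tissues in vehicle. In NP, 1 member, Uqcr11, was called for treatment with a filter of 5 FPKM and 1 without NP vehicle library 6. Direction changed for Cox4i2 in NP treatment (-0.02 with the GC trend removed, -0.03 with GC and length trends), Cox6a1 (-0.05 and -0.06), Cox8b between tissues in MDL-800 (0.33 without muscle-rich libraries, 0.03 without AF library 29, over a range of -0.72 to 0.03 with 1 library left out) and the ratio of Cox6a2 to Cox6a1 in NP treatment (-0.14 with a pseudocount of 1); none of these was called, and the cause was not tested.

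With 1 library left out, members called ranged from 25 to 37 between tissues in vehicle, 43 to 52 in MDL-800 and 0 to 1 for treatment in NP, with 0 for AF and for the interaction. Their medians ranged from -0.43 to -0.28, -0.46 to -0.29, -0.09 to 0.00 and -0.07 to 0.09 in AF. In the order vehicle tissues, MDL-800 tissues, NP treatment and AF treatment, log2 ratios ranged as follows. Ndufa4l2/Ndufa4 ranged from 2.57 to 3.19, 3.42 to 3.74, 0.67 to 0.91 and -0.17 to 0.45. Cox4i2/Cox4i1 ranged from 1.66 to 2.05, 1.37 to 1.88, 0.04 to 0.40 and 0.18 to 0.69. Cox6a2/Cox6a1 ranged from -5.01 to -3.74, -4.50 to -3.30, -0.11 to 1.26 and -0.42 to 0.58. Cox7a1/Cox7a2 ranged from -2.98 to -1.96, -2.80 to -1.91, -0.92 to 0.02 and -1.02 to -0.05. Cox8b/Cox8a ranged from -1.35 to -0.51, -0.56 to 0.22, 0.21 to 0.51 and -0.75 to 0.13.

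Quantile normalization moved the median of all genes from -0.08 to 0.19 in both tissue comparisons and that of the members to -0.29 and -0.30, with 29 and 47 called. Scaling to the same sum gave 24 and 54. Numbers in the column names may pair NP with AF libraries, but their meaning is not stated. Same-numbered vehicle libraries correlated with r from -0.18 to 0.29 (2 of 5 pairs over 0.1) and MDL-800 libraries from -0.18 to 0.17 (1 of 3). Libraries with different numbers ranged from -0.37 to 0.33 (5 of 20) in vehicle and from -0.17 to 0.23 (5 of 22) in MDL-800. So few pairs cannot show whether the libraries are paired, and the main tests did not treat them as pairs. With the replicate block, 37 and 49 members were called. Depth is known only as an estimate, so no counting interval is given, and low members such as Cox6a2 are the least precise.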

Other observations

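The genes around the chain were also compared between the tissues in the MDL-800 groups, which are other libraries than the vehicle groups. Of 13 citrate cycle genes 10 were lower in NP MDL-800 than in AF MDL-800 and 1, Suclg2, a subunit of succinate-CoA ligase, was higher (log2 difference 0.92, limma adjusted p = 3.81e-05), with 37.2% and 25.6% of all genes. Citrate synthase (Cs) was at -1.18 (limma adjusted p = 1.72e-05). Of 6 genes of the mitochondrial response to hypoxia 5 were higher and 1 lower, with Bnip3 at 2.06 (limma adjusted p = 6.39e-06) and Egln3 at 1.84 (limma adjusted p = 1.09e-05). Cycs and Cyc1 were lower, at -0.83 and -0.84. Of 21 complex IV assembly genes 5 were lower and 3 higher, with a median of -0.04. Cmc2 was the lowest named (-0.88), and Surf1, a complex IV assembly factor, was higher (0.48, limma adjusted p = 0.00366). Slc25a5 was at -2.16 (limma adjusted p = 2.52e-06).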
